A study of Mus musculus with 14 samples.

Results

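The 48 genes described here encode factors that make ribosomes, and they were taken by symbol from a list of such factors, with no threshold on their values. All 48 were found among the 24054 genes of the expression tables, and the lowest of them still held 256 reads in its poorest library. They were sorted into 8 groups by role: RNA polymerase I subunits, the box C/D and box H/ACA small nucleolar ribonucleoproteins, the small subunit processome, later assembly of the small subunit, assembly of the large subunit, RNase MRP and RNase P subunits, and nucleolar scaffold proteins with cofactors of rDNA transcription.

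Messenger RNA levels were measured by low-input RNA-seq in 14 libraries of sorted mouse embryonic stem cells (ESCs) and their derivatives, which fell into 6 groups. In the knock-out series the coding region of Foxa2, a pioneer factor of endoderm, had been replaced with a nuclear Venus reporter on 1 allele (control, Foxa2-Venus-KO/+) or on both alleles (ko, Foxa2-Venus-KO/Venus-KO), so the control cells also carried 1 disrupted allele. Undifferentiated cells were sorted at day 0 as negative for the Cherry-labelled feeder cells (d0con and d0ko, 2 libraries each), and Venus-positive cells were sorted at day 3 after culture on Wnt3a-expressing feeders with 12 ng/ml Activin A (d3con and d3ko, 3 libraries each). Each genotype was represented by 2 clones, with day 3 replicates 1 and 3 from the same clone, C59 for the control and C9 for the ko, and replicate 2 of both days from C63 and C17. The remaining libraries came from a single ESC line, T119, which carries a lentiviral doxycycline-inducible Foxa2-Venus gene in a Sox17-Cherry background. This line was kept in LIF and serum with 40 ng/ml doxycycline for 48 h, and the cells that did not and did express Venus were sorted apart as d2-FVFn and d2-FVFp (2 libraries each).

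Ribosome production starts in the nucleolus, where RNA polymerase I transcribes the rDNA into a long precursor. Small nucleolar ribonucleoproteins modify this precursor, the processome folds and cuts it on the way to the 40S subunit, and a different set of helicases, GTPases and scaffold proteins builds the 60S subunit. The genes of this pathway are known to be expressed together and to be highly active in growing and proliferating cells such as ESCs, and Myc family proteins, which bind the E-box sequence, are well-known activators of many of them.

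The libraries held 14142788 to 27278237 expected counts, and the 10 most abundant genes took 4.95 to 6.73% of them. Foxa2 itself stood at 34.8 to 58.6 TPM (a transcript level corrected for transcript length and library depth) in d3con and at 0.11 to 0.19 TPM in d3ko, and at 2.01 to 2.99 TPM in d2-FVFn against 160 to 169 TPM in d2-FVFp. The Foxa2 level therefore went with the label in these libraries. At day 0 it was 0.13 to 0.14 TPM in d0con and 0.07 to 0.11 TPM in d0ko, too low to check the genotype there. The summed level of 6 pluripotency markers (Pou5f1, Nanog, Sox2, Zfp42, Klf4, Dppa5a) was 13787 to 15663 TPM at day 0 and 562 to 985 TPM in d3con, but 15431, 2668 and 17364 TPM in d3ko replicates 1, 2 and 3, so replicates 1 and 3 of the ko were at the day 0 level or above it. Most of this sum was Dppa5a at day 0 and in d3ko, and the level of Pou5f1 alone was 522, 501 and 944 TPM in d3ko, against 1335 and 1457 TPM in d0ko. The 6 endoderm markers summed to 760 to 1278 TPM in d3con and to 29.0 to 141 TPM in d3ko. By the deposited effective lengths, both day 3 replicate 1 libraries were read with 75 bases and all others with 50. The study's methods give 50 bases for all of them. In bulk libraries, fewer cells of a type and less RNA per cell cannot be told apart.

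Because the E-box is the classical Myc site, the 300-base RefSeq promoter windows (GRCm38.p6, 250 bases before to 50 bases after each transcript start) were searched for CACGTG, and stretches with a match are shown for the members where the match ended no more than 30 bases after the start. Each is printed 5′ to 3′ on the strand of the gene with the E-box in capitals.
Nop2, chr6:125131803-125131882, plus strand: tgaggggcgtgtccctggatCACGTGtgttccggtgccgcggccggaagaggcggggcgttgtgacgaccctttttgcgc
Tsr1, chr11:74898020-74898109, plus strand: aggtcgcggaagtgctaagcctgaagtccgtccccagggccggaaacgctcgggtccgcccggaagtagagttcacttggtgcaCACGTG
Wdr43, chr17:71616155-71616237, plus strand: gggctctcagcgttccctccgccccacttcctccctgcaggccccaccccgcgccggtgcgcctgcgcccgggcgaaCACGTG
Utp18, chr11:93885767-93885826, minus strand: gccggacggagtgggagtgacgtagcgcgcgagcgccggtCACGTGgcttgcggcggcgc
Pes1, chr11:3963915-3963982, plus strand: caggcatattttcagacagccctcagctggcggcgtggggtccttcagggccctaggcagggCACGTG
Rpp38, chr2:3332613-3332688, minus strand: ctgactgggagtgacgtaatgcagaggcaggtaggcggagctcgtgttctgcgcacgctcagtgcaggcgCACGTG
Windows were found for 41 of the 48 members. Of these 41 genes, 10 (24.4%) held an E-box, compared with 8.09% of all 27025 genes with a window and 11.7% of the 10363 genes with a window that were tested at day 0 and day 3. Among related genes with a window, it was in 22.7% of other processome genes, 16.2% of other 60S assembly genes and 10.3% of cytosolic ribosomal protein genes. In 8 of the 10 the match lay after the start, with its first base between positions 3 and 41, and in Nop2 and Utp18 it began 60 and 20 bases before it. Beyond the stretches above, Grwd1, Ltv1, Utp20 and Mybbp1a also held one.

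A match to CCGGAAG, a core site of ETS factors, was present in 16 of the 41 members (39.0%) against 19.1% of the tested genes, on either strand. The share was not particular to the members. It was 50% in other processome genes, 51.4% in other 60S assembly genes and 41.4% in cytosolic ribosomal protein genes. It is shown in capitals for the members that are described below for the size of their change.
Nop2, chr6:125131823-125131882, plus strand: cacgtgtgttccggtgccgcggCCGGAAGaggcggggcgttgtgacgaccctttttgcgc
Heatr1, chr13:12395315-12395374, plus strand: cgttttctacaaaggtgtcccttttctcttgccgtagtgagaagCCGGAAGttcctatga
Wdr3, chr3:100162394-100162467, minus strand: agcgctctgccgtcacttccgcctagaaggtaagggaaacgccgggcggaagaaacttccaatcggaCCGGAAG
The forkhead sequence TGTTTAC, a core of the Foxa2 site, occurred in the window of 1 member, Rrp1b (2.44% of the members), and in 3.05% of the tested genes. The matches describe these windows and do not show that a factor was bound. No match to any of these letters overlapped another in the stretches shown.

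At day 0 the members covered a wide range of levels. Npm1, the nucleolar chaperone nucleophosmin, was by far the most abundant with 3238 and 3479 TPM in the d0con libraries and 3596 and 3636 TPM in the d0ko libraries. Over all 14 libraries, 5 members averaged above 500 TPM (Npm1, Nhp2, Fbl, Nop56 and Nop10) and 8 averaged below 50 TPM, among them Rpp40 with a mean of 26.2 TPM and Noc3l with 28.5 TPM. Together the 48 members took 1.33 to 1.37% of all transcripts at day 0.

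**Figure D1:**
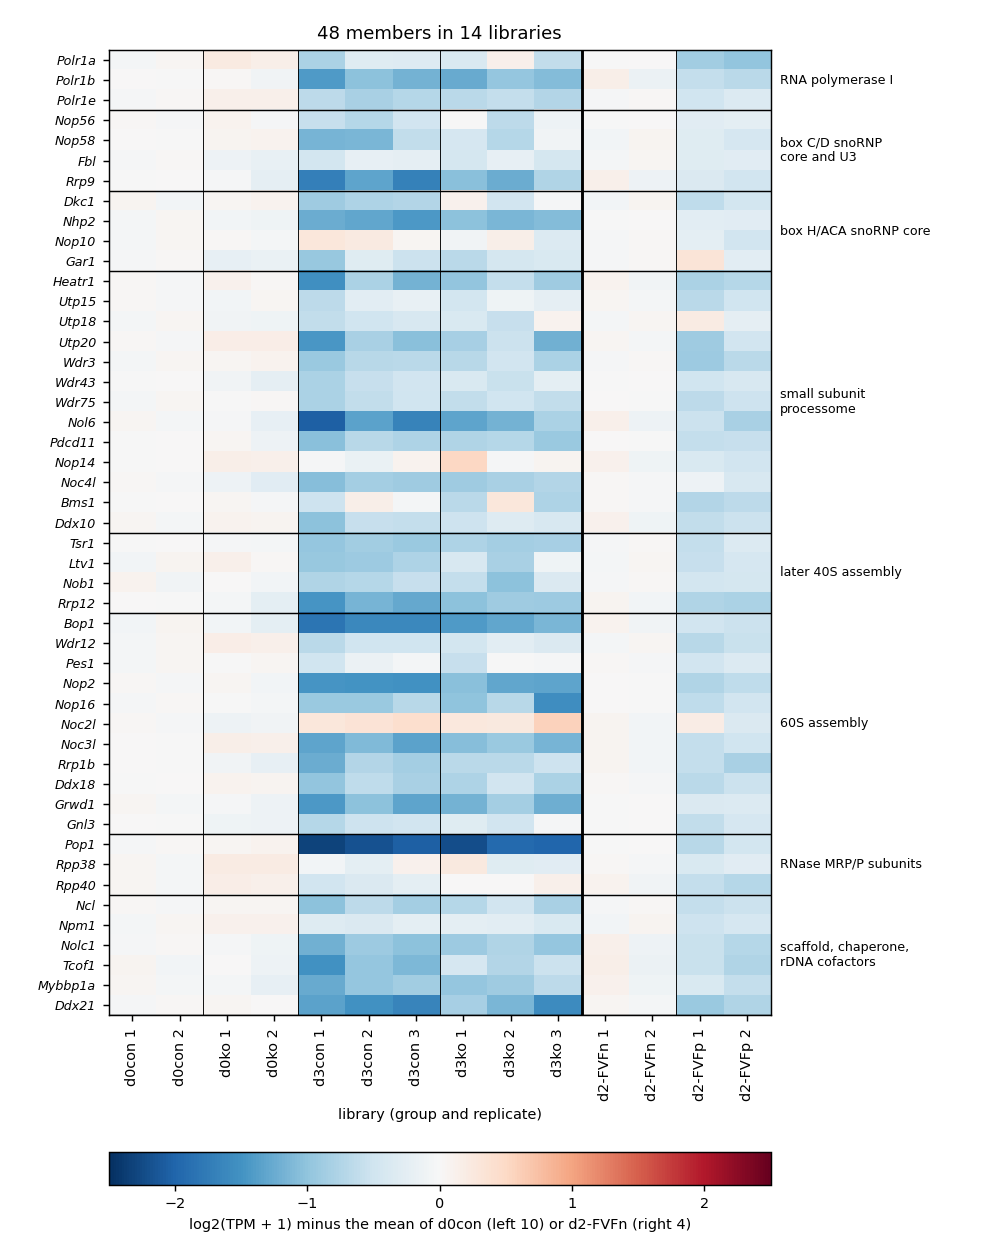
Level of the 48 members (rows, by role group) in the 14 libraries (columns), as log2(TPM + 1) minus the mean of the d0con libraries for the first 10 columns and of the d2-FVFn libraries for the last 4. The d0ko columns are close to white, the 6 day 3 columns are blue in most rows and darkest for Pop1, and the 2 d2-FVFp columns are pale blue in most rows.

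To ask whether loss of the second Foxa2 allele changed these genes before differentiation, d0ko was compared with d0con. None of the 48 members was called by edgeR's quasi-likelihood test with Benjamini-Hochberg adjustment at an adjusted p under 0.05, none had an unadjusted p under 0.05, and DESeq2 called none. The background was empty as well, since 0% of the 13899 genes tested were called higher and 0% lower. The members' log2 fold changes ran from -0.25 (Noc4l) to 0.17 (Rpp38) around a median of -0.046, with a median of 0.019 over all genes. The summed TPM of the members was 13383 and 13649 in d0con and 13698 and 13297 in d0ko, with overlapping groups.

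From day 0 to day 3 in the control genotype, most ribosome biogenesis genes fell. The test called 42 of the 48 members lower and none higher in d3con against d0con, and 26 of them fell more than 2-fold. Among all 13899 genes, 25.2% were called lower and 27% higher, and 14.6% fell more than 2-fold. The members' median log2 fold change was -1.03 (2.04-fold lower), with 0.070 over all genes, and 47 of the 48 had a negative value. Every d3con library lay below every d0con library for 42 members, a pattern seen in 29.2% of all genes. Summed over the members, the level dropped from 13383 and 13649 TPM to 8215, 8858 and 8993 TPM, and without Npm1 from 10145 and 10170 TPM to 5521, 6236 and 6168 TPM.

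Pop1 (chr15:34495311-34530653, GRCm38.p6 here and below) fell furthest. It encodes the largest protein subunit shared by RNase MRP and RNase P, which cut pre-rRNA and pre-tRNA. Its level was 44.4 and 46.6 TPM in d0con and 8.36, 9.30 and 10.3 TPM in d3con, so the day 3 libraries were well separated from day 0. The log2 fold change was -2.49 ± 0.13, adjusted p = 5.27e-05 (± SE here and below, edgeR), a 5.63-fold drop. The other 2 members from these enzymes had smaller fitted changes. Rpp40 fell from 29.2 and 27.3 TPM to 19.9, 21.7 and 23.8 TPM (-0.58 ± 0.13, adjusted p = 0.00489). Rpp38, the one of the 3 with the highest mean over all 14 libraries, stood at 43.6 and 40.5 TPM in d0con and 40.03, 35.1 and 45.1 TPM in d3con with overlapping groups (-0.28 ± 0.21, adjusted p = 0.295).

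In the 60S assembly group 9 of 11 members were lower. Bop1 (chr15:76452988-76477249), which forms the PeBoW complex with Pes1 and Wdr12, went from 249.8 and 272 TPM to 72.98, 84.5 and 84.9 TPM (-1.90 ± 0.12, adjusted p = 7.18e-05). Of its partners, Wdr12 was called lower (-0.76 ± 0.11, adjusted p = 0.000651) and Pes1 was not (-0.43 ± 0.17, adjusted p = 0.0597). Nop2 (chr6:125131883-125144753), a methyltransferase of the large rRNA, fell from 313 and 302 TPM to 110.5, 108 and 107 TPM (-1.70 ± 0.13, adjusted p = 0.000139). Noc3l, needed for early 60S particles, fell from 35.4 and 35.3 TPM to 13.6, 15.9 and 13.4 TPM (-1.51 ± 0.13, adjusted p = 0.000164). For Bop1, Nop2 and Noc3l no day 3 value came near a day 0 value. In Pes1 the groups overlapped, with 198.6 and 211.9 TPM in d0con and 145.7, 185.6 and 199.1 TPM in d3con. Noc2l, the binding partner of Noc3l, was the only member with a positive value (0.15 ± 0.13, adjusted p = 0.349), and all 3 d3con libraries (143, 149.8 and 156 TPM) were above both d0con libraries (119 and 115 TPM). Gnl3, the nucleolar GTPase nucleostemin and the most abundant gene of the group, fell from 323 and 319.8 TPM to 195, 224 and 229 TPM (-0.78 ± 0.14, adjusted p = 0.00214). The remaining 4 members of the group, Grwd1, Rrp1b, Nop16 and the helicase Ddx18, were called lower with log2 fold changes of -1.46, -1.16, -1.06 and -1.01.

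Of the 13 processome members 11 fell. Nol6 (chr4:41114427-41124339), a large scaffold protein of the processome, dropped from 145 and 134 TPM to 33.1, 54.2 and 43.4 TPM (-1.89 ± 0.20, adjusted p = 0.000284), the strongest change in the group. Heatr1, one of the early proteins that also link processing to rDNA transcription, went from 113 and 109.7 TPM to 37.7, 63.7 and 48.5 TPM (-1.37 ± 0.18, adjusted p = 0.000566). Wdr3 went from 113 and 120.2 TPM to 60.5, 71.9 and 72.6 TPM (-0.98 ± 0.12, adjusted p = 0.000432). The most abundant member, Wdr43, had 204 and 207 TPM in d0con and 118, 137 and 147 TPM in d3con (-0.82 ± 0.13, adjusted p = 0.00116). In all these genes the groups were apart, although d3con replicate 1 was the lowest library in each. Utp20, Noc4l, Pdcd11, the helicase Ddx10, Wdr75, Utp18 and Utp15 were called with log2 fold changes between -1.32 for Utp20 and -0.57 for Utp15. The GTPase Bms1 (-0.33 ± 0.29, adjusted p = 0.36) and Nop14 (-0.24 ± 0.18, adjusted p = 0.295) were not called, and in both the d3con and d0con libraries overlapped.

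All 4 later 40S factors were lower. Rrp12, a repeat protein of the maturing small subunit, went from 84 and 83.2 TPM to 29.5, 36.8 and 33.6 TPM (-1.53 ± 0.12, adjusted p = 0.000139). Nob1, the nuclease that makes the final cut of the 18S rRNA, went from 323 and 289 TPM to 181, 187 and 205 TPM (-0.89 ± 0.18, adjusted p = 0.00367). Tsr1 and Ltv1, which assist maturation and export of the particle, changed by -1.14 and -1.09. Groups did not overlap for any of the 4.

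All 3 RNA polymerase I subunits fell as well. Polr1b, which helps to form the catalytic centre, had 107 and 104 TPM in d0con and 38.6, 50.9 and 46.01 TPM in d3con (-1.43 ± 0.13, adjusted p = 0.000176). The largest subunit, Polr1a, went from 39.4 and 41.6 TPM to 23.1, 32.7 and 32.2 TPM (-0.68 ± 0.20, adjusted p = 0.0213). Polr1e changed by -0.96 ± 0.13, adjusted p = 0.000615. The libraries of the 2 days were apart for all 3 subunits.

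The snoRNP genes covered nearly the whole range of changes. Rrp9 (chr9:106477309-106485415), which recognises the U3 small nucleolar RNA, fell from 295 and 295 TPM to 88.9, 117 and 91.3 TPM (-1.78 ± 0.18, adjusted p = 0.00023), while Fbl, the methyltransferase of box C/D particles, fell only from 672 and 694 TPM to 494, 589 and 582 TPM (-0.51 ± 0.12, adjusted p = 0.00564). Their partners Nop58 and Nop56 were called with -1.17 and -0.79. Of the 4 core proteins of box H/ACA particles, which guide pseudouridylation, Nhp2 dropped most, from 943 and 1022 TPM to 413, 399 and 362 TPM (-1.54 ± 0.13, adjusted p = 0.000145). Dkc1, the pseudouridine synthase, went from 240.4 and 219 TPM to 124, 134 and 138 TPM (-1.01 ± 0.17, adjusted p = 0.00151), and Gar1 changed by -0.79. Nop10, the smallest protein of the same particle, was not called (-0.026 ± 0.16, adjusted p = 0.901) and had 499 and 531 TPM in d0con and 625, 605 and 529 TPM in d3con.

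All 6 genes of the scaffold group were lower in d3con. Ddx21 (chr10:62580247-62602298), a helicase at the rDNA, had 119.7 and 125 TPM in d0con and 48.05, 42.1 and 38.4 TPM in d3con (-1.71 ± 0.22, adjusted p = 0.000481). Tcof1, which encodes treacle, a cofactor of rDNA transcription, went from 214 and 197 TPM to 71.3, 105 and 93.1 TPM (-1.41 ± 0.16, adjusted p = 0.000335). Nolc1, Mybbp1a and Ncl (nucleolin) fell by similar amounts (-1.25, -1.24 and -1.04). Npm1 had the smallest change of the group, from 3238 and 3479 TPM to 2694, 2622 and 2825 TPM (-0.50 ± 0.11, adjusted p = 0.0052). Npm1 is known to have many processed pseudogenes, among which the quantification can divide reads.

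**Figure D2:**
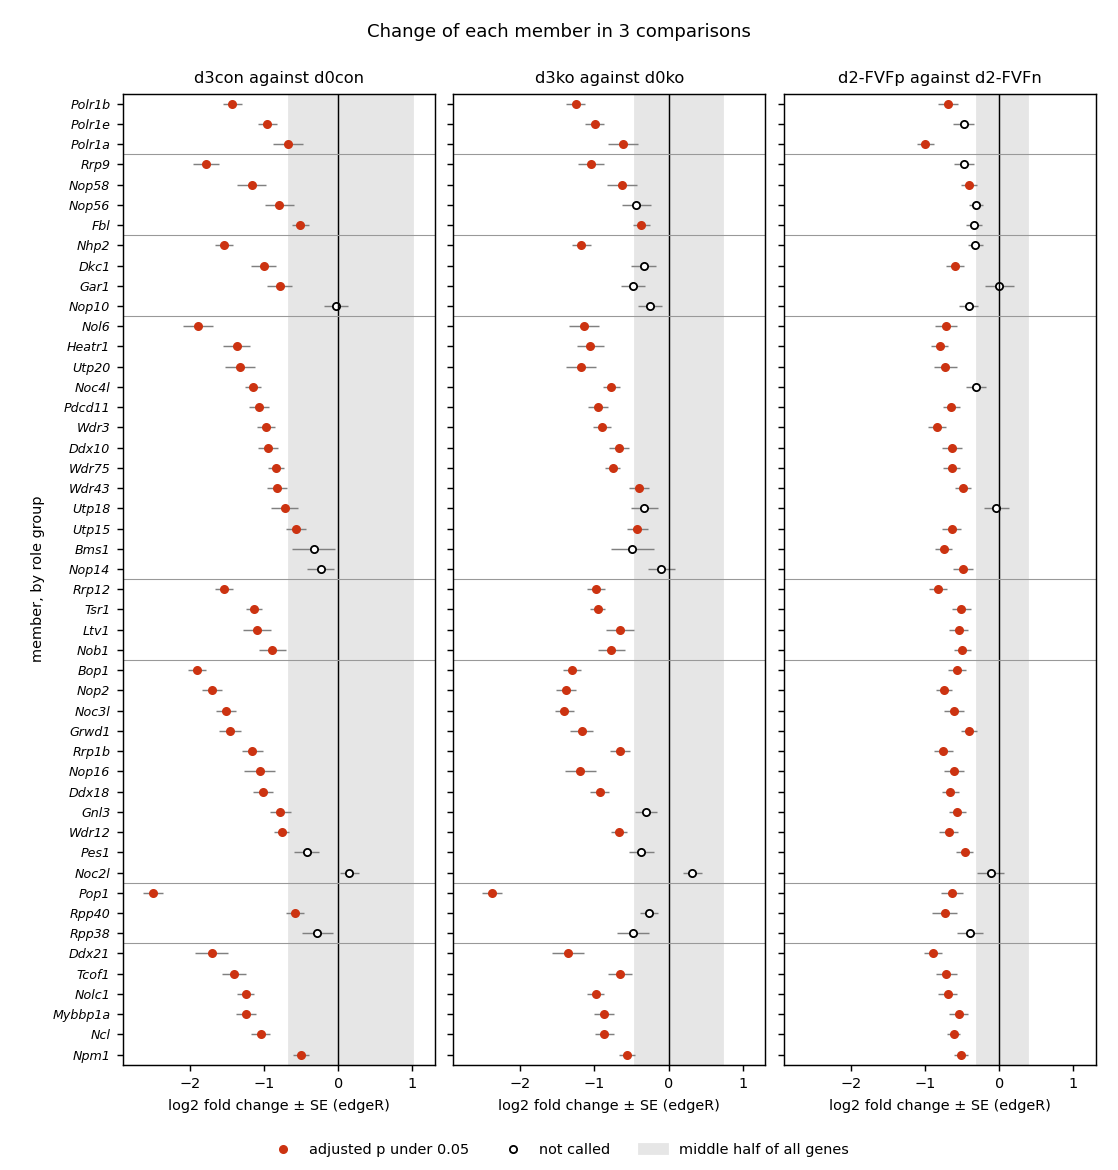
Log2 fold change with its SE (horizontal axis) of each member (vertical axis, by role group) in 3 comparisons, with filled points for adjusted p under 0.05 and a grey band from the lower to the upper quartile of all genes tested. Called members number 42, 36 and 37 from left to right, all to the left of 0, and Noc2l is to the right of 0 in the first 2 panels.

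The same change without functional Foxa2 was asked of d3ko against d0ko. Here 36 of the 48 members were lower, 13 of them more than 2-fold, and none was higher. The background was 14.1% of all genes lower and 15.9% higher, with 5.72% lower by more than 2-fold. The members' median was -0.76 (1.70-fold lower), and 47 of 48 were negative. In 37 members the day 3 ko libraries were all below the lowest day 0 ko library, as were those of 21.4% of all genes. The summed level fell from 13698 and 13297 TPM to 9541, 9468 and 9461 TPM, so the 3 day 3 libraries were close to each other although their pluripotency markers were not alike. Without d0ko replicate 1 the number of calls was 23, with 3.58% of all genes called lower, and the members' median was -0.69. The summed level of 8 fibroblast markers, Col1a1 the highest of them, also moved with the day, and their part in the result was not tested. It was 12.5 to 15.0 TPM in d0con, 38.3 to 137 TPM in d0ko, 60.2 to 308 TPM in d3con and 136 to 371 TPM in d3ko, with 5 of the 8 called higher over the 3 days in the control and 2 of the 8 in the ko. At most 1 of them was at 0 in any of these libraries. In the doxycycline libraries the sum was 2.73 to 4.07 TPM, with up to 3 of the 8 at 0.

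Pop1 was again the furthest down, with 47.3 and 48.2 TPM in d0ko and 9.06, 11.1 and 10.7 TPM in d3ko (-2.38 ± 0.13, adjusted p = 0.000179). Noc3l went from 39.3 and 38.9 TPM to 16.4, 18.2 and 15.2 TPM (-1.40 ± 0.13, adjusted p = 0.000656). Nop2 went from 318 and 294 TPM to 149, 125 and 123 TPM (-1.38 ± 0.13, adjusted p = 0.000691). These 3 genes, like Bop1 and Ddx21, had no overlap between days in the ko either. Bop1 fell from 248 and 220.2 TPM to 97.3, 106 and 118 TPM (-1.30 ± 0.12, adjusted p = 0.000656). Ddx21 fell from 127 and 123 TPM to 68.3, 54.8 and 40.6 TPM (-1.36 ± 0.22, adjusted p = 0.00321), with replicate 1 the highest and replicate 3 the lowest of the day 3 libraries.

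By role, the calls in the ko covered all 3 RNA polymerase I subunits, all 4 later 40S factors and all 6 scaffold genes, 10 of 13 processome members, 8 of 11 60S factors and 3 of 4 box C/D proteins. Only Nhp2 of the 4 box H/ACA proteins (-1.17 ± 0.12, adjusted p = 0.000784) and Pop1 of the 3 RNase subunits were called. In Polr1b the level went from 107 and 98.8 TPM to 43.3, 53.5 and 49.5 TPM, and in Polr1a from 47.3 and 44.7 TPM to 30.7, 44.2 and 26.2 TPM. Both were lower in all d3ko libraries, Polr1a only just so in replicate 2. Nol6 and Rrp9, which had been among the largest changes of the control, changed by -1.14 and -1.05. Nol6 had 137 and 120.3 TPM in d0ko and 55.5, 60.7 and 79.9 TPM in d3ko. Rrp9 had 287 and 252 TPM and 142, 125 and 175 TPM, again without overlap.

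The ko values of the other genes shown for the control were as follows. Nob1 went from 308 and 289 TPM to 202, 149.6 and 238 TPM (-0.77 ± 0.18, adjusted p = 0.0138). Wdr43 went from 194 and 175 TPM to 158, 139 and 174 TPM (-0.40 ± 0.13, adjusted p = 0.0461). Both were called, with all day 3 libraries below day 0. Fbl went from 624 and 596 TPM to 504, 593 and 505 TPM (-0.37 ± 0.12, adjusted p = 0.0391), and Npm1 from 3596 and 3636 TPM to 2833, 2814 and 2569.8 TPM (-0.56 ± 0.11, adjusted p = 0.00705). Nhp2, which led its group here too, had 939 and 915 TPM in d0ko and 482, 445 and 465 TPM in d3ko. These 3 abundant genes were lower in every ko library of day 3. Heatr1 had 119.8 and 114 TPM and 55.8, 73.4 and 59.97 TPM (-1.06), Wdr3 121 and 125 TPM and 71.4, 83.8 and 66.8 TPM (-0.90). Rrp12 had 81.1 and 70.5 TPM and 40.8, 44.8 and 44.2 TPM (-0.98), and Tcof1 206 and 187 TPM and 154, 122 and 142 TPM (-0.66). All 4 were called lower.

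The 12 members that were not called in the ko were Dkc1, Nop56, Gar1, Gnl3, Utp18, Rpp40 and, as in the control, Pes1, Bms1, Rpp38, Nop14, Nop10 and Noc2l. Dkc1 had 236 and 243 TPM in d0ko (-0.34 ± 0.17, adjusted p = 0.16), and 1 of its d3ko libraries was above both. Gnl3 had 298 and 295 TPM in d0ko and 261, 229.5 and 317 TPM in d3ko (-0.31 ± 0.14, adjusted p = 0.131), and Rpp40 31.7 and 31 TPM and 28.3, 28.6 and 31.1 TPM (-0.26 ± 0.13, adjusted p = 0.14), both with overlap. Rpp38 overlapped as well, with 48.9 and 48.6 TPM and 50.02, 33.7 and 34.3 TPM (-0.48 ± 0.21, adjusted p = 0.113). Several of the 12 spread widely between the d3ko libraries. Nop56 had 582, 371 and 539.9 TPM and Dkc1 248, 165 and 225 TPM in replicates 1, 2 and 3, while Bms1 had 45.5, 89.1 and 42.4 TPM. Replicate 2, from the other clone, was thus the lowest for Nop56 and Dkc1 and the highest for Bms1. Noc2l was above 0 in the ko too (0.32 ± 0.13, adjusted p = 0.0864), and all d3ko libraries (141, 139.9 and 175 TPM) were above those of d0ko (107 and 110.3 TPM).

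Across the 48 members the 2 changes, which come from libraries with none in common, ran in parallel (Pearson's r = 0.886, Spearman's rho = 0.858, over genes that are not independent of each other). All 36 members called in the ko were called in the control. Neither this count nor the correlation was made for all genes, of which 14.1% were called lower in the ko and 25.2% in the control. A direct test of whether the change over 3 days differed between the genotypes (the interaction of genotype and day) called no member with edgeR, 10 had an unadjusted p under 0.05, and the lowest adjusted p was 0.212. The edgeR test called 0% of all genes higher and 0% lower. DESeq2 called 2 members higher, along with 2.25% of all genes higher and 1.99% lower. The members' median interaction was 0.22, that is, a smaller fall in the ko.

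**Figure D3:**
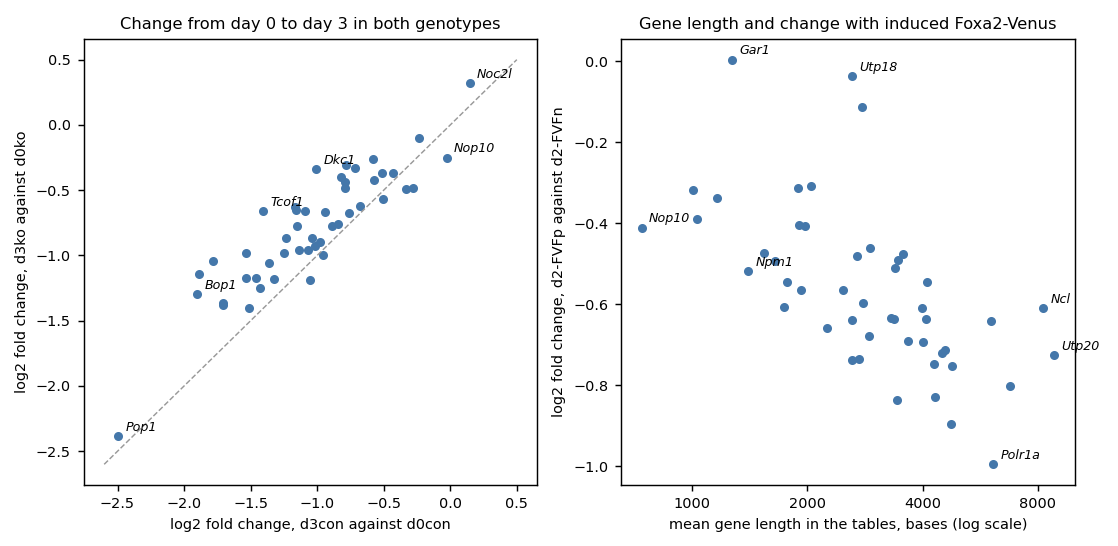
Left, log2 fold change of each of the 48 members from day 0 to day 3 in the control (horizontal) and in the ko (vertical), with the line of equal change; most points lie above the line. Right, mean deposited transcript length of each gene, labelled gene length (log scale, horizontal), and log2 fold change in d2-FVFp against d2-FVFn (vertical) for the same genes, with longer transcripts lower.

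Compared at day 3 itself, few members were called between d3ko and d3con. The members' median was 0.20 towards the ko, with 0.019 over all genes. The fitted value was positive for 43 of the 48 members and for 7194 of the 13899 genes tested, and in 14 members all d3ko libraries were above all d3con libraries, as they were in 11.5% of all genes. The test called 3 members higher and none lower, against 5.66% of all genes higher and 4.89% lower, so the share of members called was about that of all genes. Dkc1 had 124, 134 and 138 TPM in d3con and 248, 165 and 225 TPM in d3ko (0.69 ± 0.15, adjusted p = 0.0252). Tcof1 had 71.3, 105 and 93.1 TPM and 154, 122 and 142 TPM (0.64 ± 0.15, adjusted p = 0.0269). Rpp40 had 19.9, 21.7 and 23.8 TPM and 28.3, 28.6 and 31.1 TPM (0.43 ± 0.11, adjusted p = 0.0449). In each of the 3 genes the groups were apart. The calls did not hold when single libraries were left out: none remained without d3con replicate 1, d3con replicate 3, d3ko replicate 1 or d3ko replicate 3, while 5 members were called higher without d3con replicate 2, and 11 higher and 1 lower without d3ko replicate 2. The calls over all genes moved too, to 6.25% higher without d3con replicate 2, and to 14.6% higher and 12.8% lower without d3ko replicate 2. In the fits that called no member, 0.55%, 0.065%, 1.94% and 1.99% of all genes were called higher, in the order given. The shares called lower there were 1.13%, 0.53%, 1.98% and 2.28%. A further 10 members had an unadjusted p under 0.05, of which Bop1 (0.40 ± 0.11, adjusted p = 0.0504) and Rrp9 (0.57 ± 0.16, adjusted p = 0.0539) came closest to a call.

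**Figure D4:**
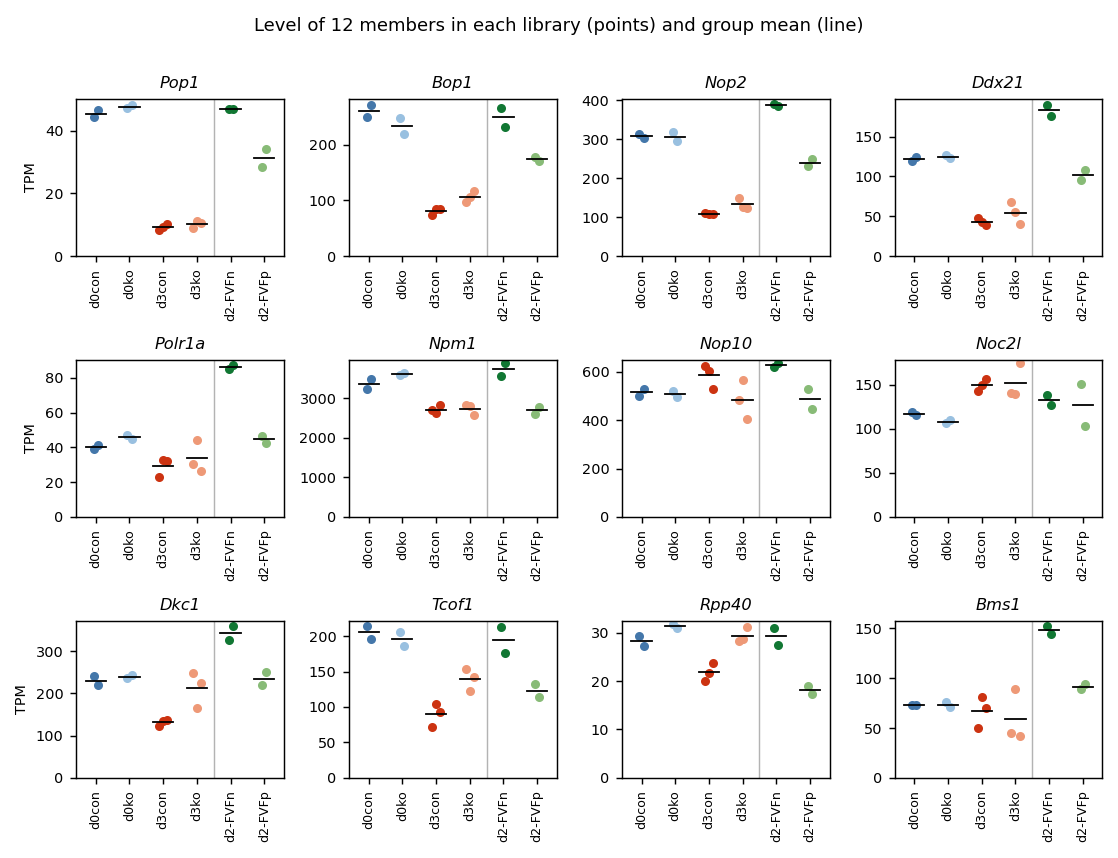
Level in TPM (vertical axis, from 0) of 12 members in each library, shown as points by group, with the group mean as a line; the grey line parts the knock-out series from the doxycycline series. Pop1, Bop1, Nop2 and Ddx21 are low in both day 3 groups and Noc2l is high there, while Polr1a has its highest points in d2-FVFn and much lower ones in d2-FVFp.

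Whether induced Foxa2-Venus alone goes with lower levels, under conditions that keep ESCs undifferentiated, was asked in the doxycycline line. Of the 48 members, 37 were lower in d2-FVFp than in d2-FVFn and none was higher, while 6.57% of the 12943 genes tested were called lower and 9.96% higher. No member fell by more than 2-fold, as 1.47% of all genes did. The median was -0.60 (1.52-fold lower, 0.0096 over all genes), 47 of 48 were negative, and both d2-FVFp libraries were below both d2-FVFn libraries for 45 members, compared with 27.4% of all genes. The summed level was 15591 and 15716 TPM in d2-FVFn and 11344 and 11397 TPM in d2-FVFp. With 2 libraries a side the calls depended on both d2-FVFn libraries, since 4 members were called without d2-FVFn replicate 1 and 8 without d2-FVFn replicate 2, with medians of -0.54 and -0.61. Over all genes the share called lower was 0.70% and 0.80% in these fits. The summed pluripotency markers moved the same way, from 6385 to 7908 TPM in d2-FVFn to 4232 to 5758 TPM in d2-FVFp, with 2 of the 6 called lower and 1 higher, and their part was not tested. The values of Venus-negative and Venus-positive cells also compare cells that were sorted apart by reporter level, and any other property that differs between these cells cannot be told apart from it.

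Polr1a (chr6:71909053-71979435) showed the largest change in the doxycycline line, from 84.8 and 87.1 TPM to 46.5 and 42.6 TPM (-0.995 ± 0.12, adjusted p = 0.00338, 1.99-fold lower). Ddx21 went from 189.9 and 176 TPM to 96.03 and 108 TPM (-0.89 ± 0.12, adjusted p = 0.00501). Wdr3 went from 198 and 204 TPM to 107 and 125 TPM (-0.84 ± 0.12, adjusted p = 0.00721). Polr1a, which encodes the catalytic subunit of RNA polymerase I, had changed by -0.68 and -0.62 over the 3 days, and the difference from the doxycycline line was not tested. Pop1, with 46.9 and 47.1 TPM and 28.5 and 34.1 TPM (-0.63 ± 0.15, adjusted p = 0.0305), was close to the members' median. Rrp12 had 127 and 115 TPM and 71.5 and 69.5 TPM (-0.83 ± 0.12, adjusted p = 0.00674). Heatr1 had 162 and 143 TPM and 88 and 92.8 TPM (-0.80 ± 0.12, adjusted p = 0.0069). In all 6 genes both Venus-positive libraries were below both Venus-negative ones.

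Further genes described at day 3 were lower too. Npm1 had 3565 and 3906 TPM in d2-FVFn and 2611 and 2789 TPM in d2-FVFp (-0.52 ± 0.096, adjusted p = 0.0143). Nop2 had 389 and 385 TPM and 231 and 249 TPM (-0.74 ± 0.11, adjusted p = 0.00702). Bop1 had 265 and 233 TPM and 178 and 171 TPM (-0.56 ± 0.12, adjusted p = 0.0229). Both groups were apart in each of them. Nol6 had 131 and 111 TPM and 83.3 and 68.6 TPM (-0.72), Tcof1 213 and 176 TPM and 132 and 114 TPM (-0.71), and Polr1b 155 and 127 TPM and 92.8 and 87.9 TPM (-0.69). Dkc1 had 327 and 360.2 TPM and 219.6 and 249.8 TPM (-0.60), Rpp40 30.98 and 27.4 TPM and 18.9 and 17.4 TPM (-0.73), and Noc3l 49.03 and 44.9 TPM and 30.7 and 32.9 TPM (-0.61). These 6 genes were called, with no overlap. Wdr43 had 288 and 294 TPM and 207 and 221 TPM (-0.49), Nob1 384 and 396 TPM and 284 and 288 TPM (-0.49), and Gnl3 377 and 381 TPM and 248 and 282 TPM (-0.56), and they were called as well. Bms1 and Nop14, which were not called at day 3, were called here with -0.75 and -0.48, and so was Pes1 with -0.46.

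Of the 11 members that were not called, 6 belonged to the snoRNP groups, where 3 of 4 box C/D genes (Rrp9, Nop56 and Fbl) and 3 of 4 box H/ACA genes (Nhp2, Nop10 and Gar1) missed the threshold. Nhp2 had 757 and 762 TPM and 636 and 622 TPM (-0.32 ± 0.11, adjusted p = 0.0809), and Fbl 661 and 702 TPM and 554 and 560.5 TPM (-0.34 ± 0.11, adjusted p = 0.0716), with both groups apart all the same. Gar1 had 164 and 172 TPM and 209 and 139 TPM (0.0038 ± 0.19, adjusted p = 0.991), so the replicates of d2-FVFp lay on both sides of d2-FVFn. Rrp9 had 288 and 240.3 TPM and 204 and 189.6 TPM (-0.47 ± 0.14, adjusted p = 0.057), and Rpp38 46.4 and 44.6 TPM and 34.6 and 37.1 TPM (-0.39 ± 0.17, adjusted p = 0.165), also apart. The others were Noc4l, Polr1e, Utp18 and Noc2l, with log2 fold changes between -0.48 for Polr1e and -0.037 for Utp18.

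The size of the change in the doxycycline line went with transcript length across the members (r = -0.62 of log2 length against log2 fold change, rho = -0.71, 48 members that share the same 4 libraries). Length here is the deposited transcript length of each gene, averaged over the libraries, and not its span on the chromosome. Over all 12943 genes the same correlation was -0.037. The 13 members with transcripts longer than 4000 bases were all called lower, with a median of -0.73. Of the 21 between 2000 and 4000 bases 17 were called, with a median of -0.61, and of the 14 shorter than 2000 bases 7 were called, with a median of -0.41. The medians of all genes in these classes were -0.0095, -0.00031 and 0.031. At day 3 the relation across the members was weaker (r = -0.28 in the control and -0.25 in the ko) and opposite in sign to that over all genes (0.097 and 0.091). Read recovery along the transcript was not measured, and its part in this relation was not tested.

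Between the changes in the doxycycline line and those over 3 days, which share no library, the correlation across the 48 members was r = 0.34 and rho = 0.32 against d3con and r = 0.39 and rho = 0.37 against d3ko. In each pairing 46 members were negative in both, and 34 and 31 were called lower in both. Neither these counts nor the correlations were made for all genes. Of all genes, 25.2%, 14.1% and 6.57% were called lower in d3con, d3ko and d2-FVFp.

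The rest of the pathway was described with 11 lists of other genes, of which 237 of 241 were matched. In d3con against d0con, 24 of 30 other processome genes, 40 of 44 other 60S assembly genes, 7 of 10 other 40S maturation genes, 7 of 9 other genes of the RNA polymerase I machinery, 7 of 9 snoRNP assembly genes, 4 of 7 other RNase MRP and P subunits and 8 of 12 exosome genes were called lower, with medians from -1.09 to -0.70. In d3ko against d0ko the counts were 24, 32, 4, 7, 5, 2 and 5 in the same order. In d2-FVFp against d2-FVFn they were 13, 19, 0, 1, 3, 0 and 2. The background for these counts is again 25.2%, 14.1% and 6.57% of all genes. Among the genes with the largest changes, Ubtf, the factor that opens the rDNA for RNA polymerase I, changed by -1.90 ± 0.27, adjusted p = 0.000735 in the control, and Rrn3, which recruits the polymerase, by -1.83 ± 0.22, adjusted p = 0.000415. Both were higher in d3ko than in d3con (1.01 ± 0.25, adjusted p = 0.0324 and 0.85 ± 0.20, adjusted p = 0.0303), and in the doxycycline line Rrn3 was the 1 gene of its list that was called (-0.61 ± 0.11, adjusted p = 0.0143). Urb2 led the 60S list with -1.92 ± 0.24, adjusted p = 0.000435, and Wdr46 the processome list with -1.63 ± 0.17, adjusted p = 0.000284. Rpp25, a subunit of the same enzymes as Pop1, fell by 2.77 ± 0.45 on the log2 scale (adjusted p = 0.00125).

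Few genes for the structural proteins of the ribosome were called. Of 79 cytosolic ribosomal protein genes, 11 were called lower and 1 higher in d3con against d0con, 8 lower and 1 higher in d3ko against d0ko, and none in d2-FVFp against d2-FVFn, with medians of -0.032, -0.0066 and -0.052. Their summed level spread between day 3 libraries, from 117655 to 156435 TPM in d3con and from 121441 to 160110 TPM in d3ko. At day 0 it was 119545 to 122854 TPM in d0con and 122130 to 122272 TPM in d0ko. In the doxycycline line 2 of the 79 had an unadjusted p under 0.05, and the difference between this list and the members was not tested. The largest change was that of Rpl30 (-1.43 ± 0.16, adjusted p = 0.000312 in the control and -1.41 ± 0.16, adjusted p = 0.000886 in the ko). Genes that host small nucleolar RNAs gave 2 higher and no lower calls of 9 in the control, 1 and 0 in the ko, and 0 and 1 in the doxycycline line. Cell division genes were partly lower as well, 6 of 16 in the control (with 1 higher), 3 of 16 in the ko and 7 of 16 in the doxycycline line, and their part in the members' changes was not tested.

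**Figure D5:**
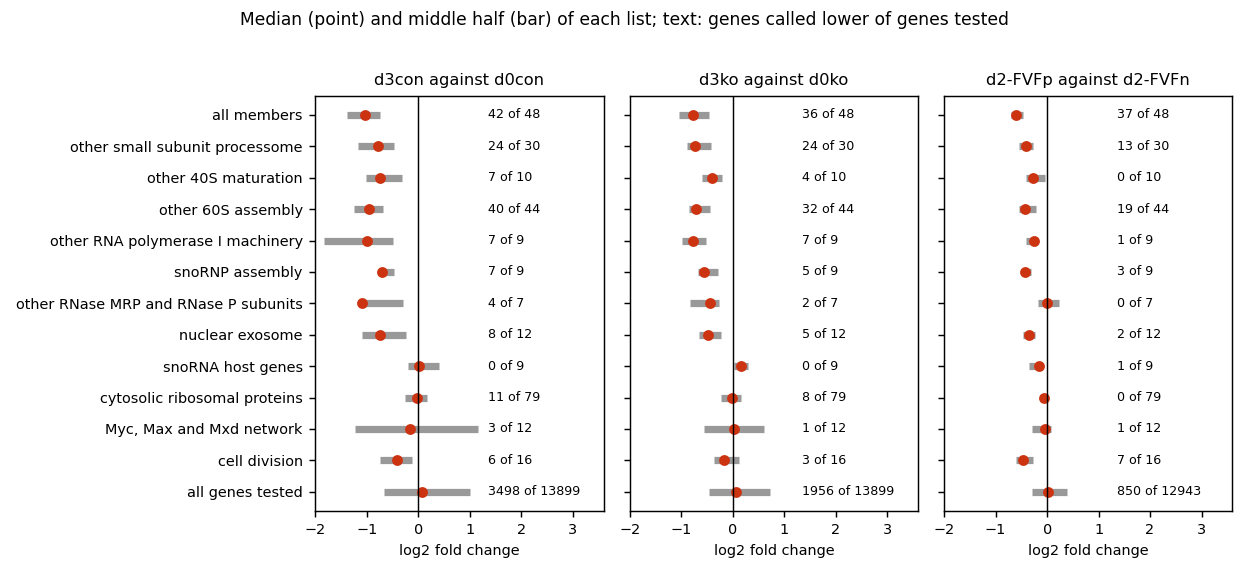
Median (point) and quartiles (ends of the bar) of the log2 fold changes (horizontal axis) of the members, 11 lists of other genes and all genes tested (rows) in 3 comparisons, with the number of genes called lower of those tested beside each row. The assembly lists lie left of 0 like the members, and the 79 ribosomal protein genes are centred near 0.

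The Myc family was examined because of its known role upstream of these genes. Mycn had 211 and 407 TPM in d0con, 164, 88.2 and 182 TPM in d3con, 259 and 321 TPM in d0ko and 240.1, 108 and 165 TPM in d3ko. It was called lower in the control (-1.29 ± 0.41, adjusted p = 0.0261) and not in the ko (-0.92 ± 0.41, adjusted p = 0.117). The day 0 and day 3 libraries did not overlap in either genotype. In the doxycycline line it went from 359 and 357 TPM to 262 and 167 TPM (-0.79 ± 0.20, adjusted p = 0.0367). Myc was not called in any of these comparisons, with 213 and 133 TPM in d0con and 65.4, 109 and 83.2 TPM in d3con (-1.22 ± 0.50, adjusted p = 0.0657), and with 103 and 79.8 TPM and 94.2 and 97.8 TPM in d2-FVFn and d2-FVFp (0.026 ± 0.16, adjusted p = 0.925). Mycl rose from 4.53 and 6.36 TPM to 81.1, 73.05 and 127 TPM in the control (3.90 ± 0.42, adjusted p = 0.00029) and in the ko, to 21.3, 40.6 and 17.7 TPM (1.85 ± 0.38, adjusted p = 0.00827). It was lower in d3ko than in d3con (-1.82 ± 0.32, adjusted p = 0.0137). Mxd4, an antagonist of Myc, rose in d3con (2.55 ± 0.62, adjusted p = 0.00825) and in d2-FVFp (1.75 ± 0.39, adjusted p = 0.026), where its relative Mxi1 rose too (1.70 ± 0.19, adjusted p = 0.00322). Over the 12 genes of this network, 4 were called higher and 3 lower in the control, 2 and 1 in the ko, and 2 and 1 in the doxycycline line.

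Among the 41 members with a promoter window, those with an E-box had changes of about the same size as those without, a difference that was not tested. Npm1, Fbl, Rrp12, Nol6, Tcof1, Pop1 and Bop1 had no window and are in neither group. Pop1, Bop1 and Nol6 were the members that fell furthest in d3con against d0con. The 10 with a match had a median of -1.11 in d3con against d0con with 8 called lower, and the 31 without had -0.98 with 27 called. In d2-FVFp against d2-FVFn the medians were -0.50 and -0.61, with 8 and 23 called. Pes1 and Rpp38, whose E-boxes are printed above, were the 2 with a match that were not called in d3con against d0con.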

How the data were processed

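RNA-seq libraries (SMART-Seq v4, a low-input kit) were made from sorted mouse cells. The authors aligned the reads to GRCm38 (mm10) with STAR and quantified each library with RSEM, versions not given in the sources used here, and the deposited expected counts are its estimate of how many reads each gene gave, with reads that match several genes divided among them and no scaling for library size. As deposited, TPM values carry RSEM's correction for transcript length and library total. The deposited FPKM values, scaled per length and reads, were not used. Of the deposited length columns, the transcript length of each gene, averaged over the libraries, was used, and the effective length served only to infer the read length.

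Groups and replicate numbers followed the sample titles, and clones the file names and the study's methods. The 48 members and all gene lists were chosen with earlier results of these data known. Genes were matched by symbol, with RefSeq names and positions on GRCm38.p6. Values in every library were given for the most abundant member of each role group, and for the up to 5 members with the largest called change in each direction of a comparison. Of the called genes in the further lists only some are named, most of them by log2 fold change alone.

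Expected counts were rounded to whole numbers, and genes with at least 1 CPM in at least 2 libraries of a fit were tested (13899 genes for the 10 libraries of the knock-out series and 12943 for the 4 of the doxycycline series, which were fitted separately). After TMM scaling, a quasi-likelihood model was fitted in edgeR 4.0.16 under R 4.3.3, and a gene was called when its p after Benjamini-Hochberg adjustment over all genes tested was under 0.05. The interaction was taken from the fit of the knock-out series. Each SE is the absolute log2 fold change over the square root of the test's F statistic. The fits were tested on simulated counts. Totals of 14142788 to 27278237 expected counts gave at least 256 counts to each member in each library. Replicates 1 and 3 of a day 3 group share a clone, and replicates 1 and 2 of each group of the knock-out series come from different clones. The paper calls the knock-out series libraries biological replicates. It does not state separate cultures for them or for the doxycycline libraries. The p-values therefore measure the spread between these libraries, which may be technical in part, or wholly in the doxycycline line.

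Same-numbered day 0 and day 3 libraries of a genotype share a clone by name, but their deviations from the group means correlated at only -0.030 to 0.066. Between the genotypes the numbers mark different clones (0.52, 0.29 and -0.019 at day 3). In the doxycycline line the correlation was 0.26, a single value, because with 2 libraries a group both pairs must give the same. Alternatives were DESeq2 1.42.0, median-of-ratios scaling, no filter, a 2-fold threshold, limma 3.58.1 on log2(TPM + 1) for genes with a mean TPM of at least 1, replicate and clone blocks, fits of only the groups compared, replicates 1 and 3 summed, both day 3 replicate 1 libraries left out, and each library left out.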

Additional observations from a re-analysis of the deposited data

How the results depend on the processing

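Under the alternatives no called result changed direction, and 1 median over the members took the other sign, that of d0ko against d0con (-0.046, and 0.0046 without d0ko replicate 2). With a 2-fold threshold, 26 members were lower in d3con against d0con, 13 in d3ko against d0ko and 0 in d2-FVFp against d2-FVFn, and 0 were higher in d3ko against d3con. With limma on log2(TPM + 1), 1 member (Noc2l) was called higher in d3con against d0con and 1 (again Noc2l) in d3ko against d0ko. Of all genes, 30.7% and 18.5% were called higher there. Of the 42, 36 and 37 members called in the edgeR fits of the control, the ko and the doxycycline line, limma called 39, 28 and 28 again. The shares of all genes that limma called lower were 18.5%, 10.1% and 3.61%. That scaling moved the median of all genes to 0.20, 0.15 and 0.043 in the control, the ko and the doxycycline line, and the members lay 1.02, 0.75 and 0.59 below it, compared with 1.10, 0.83 and 0.61 in the edgeR fits. It also changed the share of higher calls among all calls from 51.7% to 62.4% in the control, from 53.1% to 64.7% in the ko and from 53.6% to 42.7% in d3ko against d3con.

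For d3ko against d3con, DESeq2 called 8 members higher (10.3% of all genes). None was called with only the groups compared, with replicates 1 and 3 summed or without both replicate 1 libraries. Hardly any gene was called in these fits either, with 0.052%, 0% and 0% of all genes higher and 0.44%, 0.0073% and 0.0073% lower, in the same order. DESeq2 called 2 members (Rrp12 and Bop1) higher in the interaction (2.25% of all genes). Leaving out 1 library at a time gave 23 to 36 lower and 0 to 1 higher members in d3ko against d0ko, 0 to 11 higher and 0 to 1 lower in d3ko against d3con, 0 to 2 higher in the interaction and 4 to 35 lower in d2-FVFp against d2-FVFn. The extremes were without d0ko replicate 1 (23), d3ko replicate 2 (1 higher, Noc2l, against d0ko, and 11 higher, 1 lower and 2 higher in the others) and d2-FVFn replicate 1 (4). In the control the range was 39 to 42. The cause was not tested.

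With the replicate number as a block, 43 members were lower in the control, 36 in the ko and 44 in the doxycycline line (16.4% of all genes there, 6.57% without the block), where Rrp9, Nop56, Fbl, Nhp2 and Nop10 were among the calls gained, and 2 were higher in d3ko against d3con. With the clone name as a replicate block, 42 were lower in the control and 34 in the ko. Of 227 alternative values of named members, 198 kept their direction and side of the threshold, and 29 kept their direction only, 26 of them Dkc1, Tcof1 and Rpp40 in d3ko against d3con. No member had under 256 counts in any library.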

Other observations

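Pop1 (chr15:34495311-34530653, GRCm38.p6), the member with the deepest fall at day 3, has Rpl30 52035 bases away on the same chromosome (chr15:34440505-34443276), which was the ribosomal protein gene with the largest change. This neighbourhood was looked at after the values of both were seen. Rpl30 had 172 and 209 TPM in d0con and 79.2, 87.3 and 76.2 TPM in d3con, and 171 and 159.9 TPM in d0ko and 64.2, 77.5 and 68.6 TPM in d3ko. The 2 genes thus fell in both genotypes without overlap between days. In the doxycycline line Rpl30 changed by -0.25 ± 0.15 (adjusted p = 0.293, edgeR), and Pop1 was called lower.

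Of the other 4 genes within 100000 bases, Rida (Hrsp12 in the tables) lies 65 bases from Pop1 and did not fall with it in the control, with 49.9 and 57.6 TPM in d0con and 90.4, 82.4 and 96.1 TPM in d3con (0.53 ± 0.18, adjusted p = 0.0356). In the ko it changed by -0.31 ± 0.18 (adjusted p = 0.205). In the knock-out series Matn2 stayed at or below 2.15 TPM, and Erich5 and Nipal2 at or below 0.39 TPM. At these low levels Matn2 was called higher in d3con against d0con (1.82 ± 0.60, adjusted p = 0.0301, edgeR). It was not called in the ko (0.95 ± 0.57, adjusted p = 0.235). In the doxycycline line Matn2 was called higher, from 2.73 and 3.22 TPM to 6.01 and 5.52 TPM (0.91 ± 0.24, adjusted p = 0.0427).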
